A study of Caenorhabditis elegans with 18 samples.

Results

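The basement membrane genes are 10 genes of Caenorhabditis elegans that encode structural proteins of the basement membrane or proteins that act on it: emb-9, let-2, cle-1, epi-1, lam-1, lam-2, nid-1, unc-52, ost-1 and pxn-2. They were chosen by gene symbol, and all 10 of 10 were found among the 46253 genes of the deposited tables and were among the 16006 that passed the filter on low counts. RNA sequencing measured transcripts of whole worms of the wild-type strain N2 in 18 samples, as 6 groups of 3. The worms were synchronised by starvation at the first larval stage and grown on plates treated with water or with femtogram amounts of ascr#10, an ascaroside pheromone produced mainly by males. Water and ascr#10 worms were taken at 50 h and at 58 h after synchronisation, which makes the first collection of 12 samples. Both 58 h groups were collected a second time, which gives 6 further samples that the labels call batch 2. Every group thus held hermaphrodites grown in the same way, with males and delayed worms removed shortly before harvest, and each sample pooled many animals. The age of 6 samples was taken as 50 h from their titles and descriptions, although a separate label field reads 58 h throughout.

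A basement membrane is a thin sheet of extracellular matrix that lines tissues such as body wall muscle, pharynx, intestine and gonad. Laminin trimers and type IV collagen trimers each form a network, and nidogen and the proteoglycan perlecan bind to these networks. In C. elegans much of the type IV collagen is made by body wall muscle and some by the somatic gonad, and perlecan anchors the muscle to the hypodermis. The study's title concerns an effect of a male pheromone on the oogenic germline, which lies inside a gonadal basement membrane.

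A sample's total count ranged from 25630681 to 32932976 in the first collection, and the second was deeper, at 54285989 to 72251267. The 10 genes together took between 0.17% and 0.42% of all counts, and the shares were lower at 58 h than at 50 h in every sample. Ribosomal RNA genes took 2.28% of counts in replicate 2 of ascr#10 at 50 h and 0.346% to 0.990% elsewhere. That sample also stood apart in its counts over genes, with a chi-square per degree of freedom of 15.98 and 18.3 against its 2 replicates, which differed from each other by 1.82, and pairs of other groups differed by 1.65 to 6.54. Samples of a condition are called independent in the labels, and the tests rest on the spread among them. Levels are given as CPM, read counts scaled to library size by TMM, which serve to compare samples within a gene. Levels of different genes are compared only in TPM, which is scaled for transcript length as well.

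**Figure D1:**
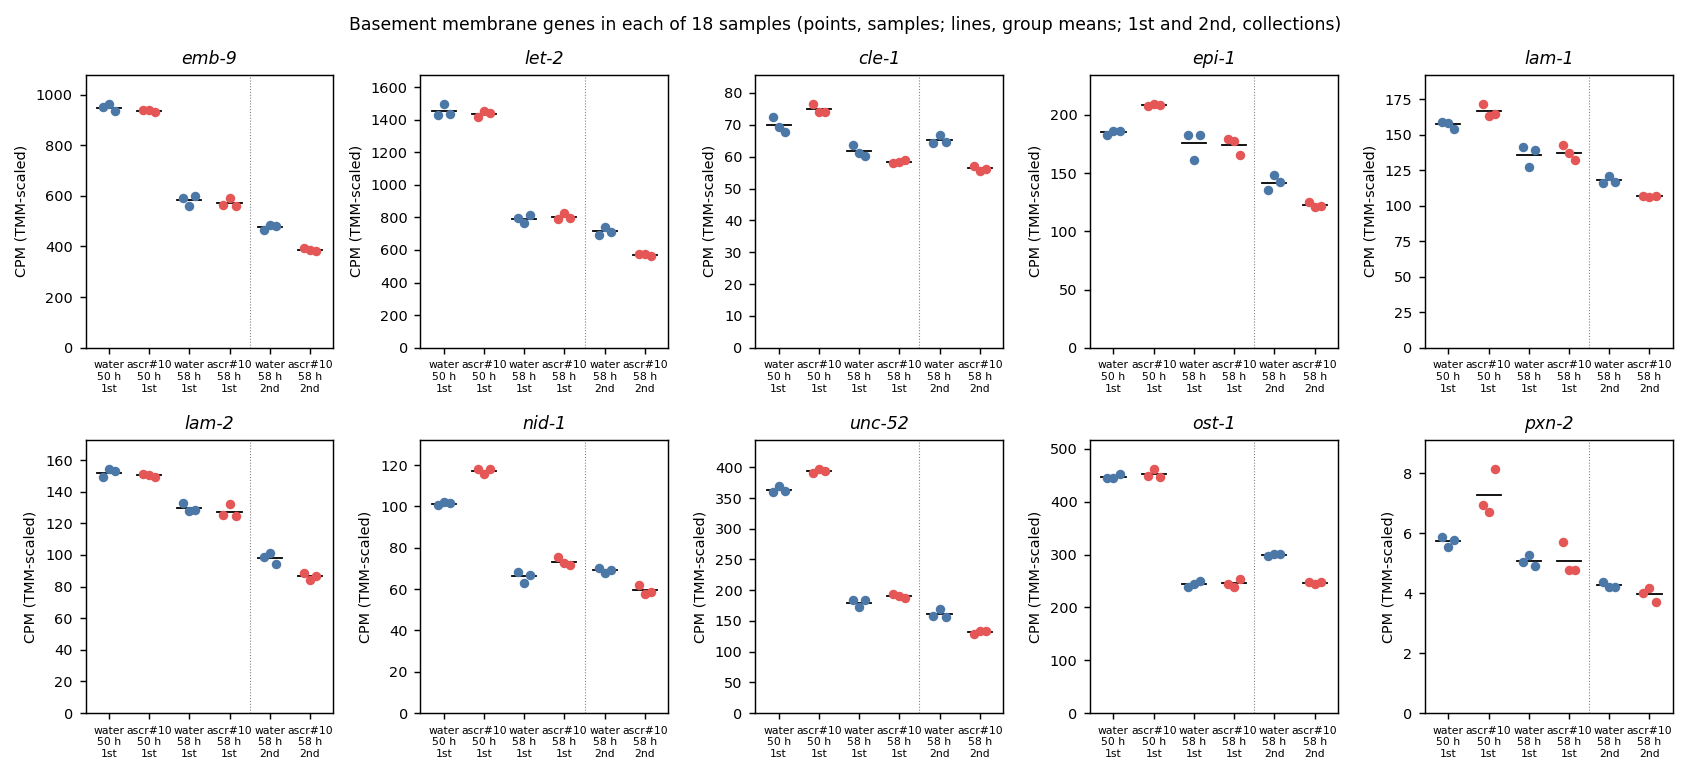
TMM-scaled CPM (linear axis from 0) of each basement membrane gene in every sample, by exposure, age and collection; points are samples and lines are group means of 3. In the first collection emb-9 fell from a mean of 949 CPM in water at 50 h to 584 CPM at 58 h, and in the second collection the ascr#10 samples lay below the water samples for all 10 genes.

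The levels of the 10 genes per transcript length differed widely. TPM values are given here without annotated transcripts under 500 bases, for a reason stated with the transcripts. In water at 50 h ost-1, which encodes the collagen-binding glycoprotein SPARC, was highest at 402 ± 2.1 TPM (SD, n = 3). The type IV collagen chains followed, let-2 at 212 ± 6.32 TPM and emb-9 at 142 ± 2.1 TPM. Next were unc-52 (perlecan) at 39.5 ± 0.694 TPM and cle-1 (a collagen of the XV and XVIII type) at 26.8 ± 0.905 TPM. Then 3 genes lay close together, namely lam-1 (laminin beta) at 21.8 ± 0.568 TPM, lam-2 (laminin gamma) at 21.2 ± 0.351 TPM and nid-1 (nidogen) at 20.8 ± 0.277 TPM. Neighbours among these 3 did not differ beyond their spread. The laminin alpha chain gene epi-1 was at 13.5 ± 0.146 TPM, and pxn-2, a peroxidasin, was lowest at 1.19 ± 0.0365 TPM. The ranks of ost-1, let-2, emb-9, epi-1 and pxn-2 were 1, 2, 3, 9 and 10 in all 6 groups, while unc-52 moved from rank 4 at 50 h to rank 5 at 58 h in the first collection.

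Age was the axis along which the type IV collagen genes moved most. The gene emb-9 (WBGene00001263) encodes the alpha1 chain and lies at III:9336881-9344447 on the minus strand of WBcel235, per the Ensembl annotation. In the water samples of the first collection it was at 949, 964 and 934 CPM at 50 h and at 592, 561 and 599.8 CPM at 58 h. In the ascr#10 samples it was at 938, 939.7 and 932 CPM at 50 h and at 565, 592 and 561 CPM at 58 h. All 6 older samples were thus below all 6 younger ones. In whole animals fewer cells of a type and less RNA per cell cannot be told apart. The log2 fold change of emb-9, 58 h over 50 h, was -0.70 ± 0.02 (SE) in water (edgeR adjusted p = 9.88e-33) and -0.71 ± 0.02 in ascr#10 (edgeR adjusted p = 4.98e-33). Its partner let-2 (WBGene00002280, X:16380597-16389340, minus strand) encodes the alpha2 chain. In water let-2 was at 1431, 1497 and 1432 CPM at 50 h and at 799, 764 and 817 CPM at 58 h. Here too the ages did not overlap, and the log2 fold change was -0.87 ± 0.02 in water and -0.84 ± 0.02 in ascr#10.

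The 2 collagen chains did not fall equally. In TPM the emb-9 to let-2 ratio was 0.671 ± 0.0141 in water and 0.668 ± 0.0102 in ascr#10 at 50 h (SD, n = 3). At 58 h in the first collection it was 0.752 ± 0.00371 in water and 0.731 ± 0.00653 in ascr#10. No 58 h sample of that collection had a ratio as low as any 50 h sample. The difference in the log2 ratio was 0.147, with an exact two-sided permutation p of 0.005 when age was permuted within exposure, the smallest that 400 arrangements allow, and 0.045 after adjustment over the 9 ratio comparisons made. In the second collection the ratio was 0.706 ± 0.0091 in water and 0.723 ± 0.00559 in ascr#10. Exposure gave a difference in the log2 ratio of -0.00709 at 50 h (exact permutation p = 0.9) and -0.00291 at 58 h over both collections (exact permutation p = 0.835).

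Of the proteins bound to the networks, perlecan fell most. The gene unc-52 (WBGene00006787, II:14647321-14684456, minus strand) was at 360.0, 369 and 362 CPM in water at 50 h and at 184, 172 and 184 CPM at 58 h. Its log2 fold change with age was -1.02 ± 0.03 in water and -1.05 ± 0.03 in ascr#10, the lowest of the 10 genes in both. SPARC, which binds type IV collagen, also fell. In water ost-1 (WBGene00003893, IV:1107396-1110872, plus strand) was at 445, 445 and 452 CPM at 50 h and at 239, 245 and 249 CPM at 58 h, so that the ages did not overlap. Its log2 fold change was -0.87 ± 0.02 in water and -0.88 ± 0.02 in ascr#10. Nidogen (nid-1, WBGene00003738, V:12910107-12917221, plus strand) fell by 0.62 on the log2 scale in water and by 0.68 in ascr#10.

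The laminin genes moved less. In water lam-1 (WBGene00002247, IV:5173332-5183746, plus strand) averaged 157 ± 2.62 CPM at 50 h and 136 ± 7.5 CPM at 58 h, with a log2 fold change of -0.21 ± 0.03. The gamma chain gene lam-2 (WBGene00016913, X:7143846-7151239, minus strand) averaged 152 ± 2.6 CPM and then 129.7 ± 2.74 CPM, which gave a log2 fold change of -0.23 ± 0.03. The alpha chain gene epi-1 (WBGene00001328, IV:10666823-10679291, plus strand) was at 183, 186 and 186 CPM at 50 h and at 183, 161 and 182 CPM at 58 h in water. These values overlapped, and the log2 fold change of -0.08 ± 0.04 did not pass the test (edgeR adjusted p = 0.0885). In ascr#10 epi-1 fell by 0.26 on the log2 scale, lam-2 by 0.24 and lam-1 by 0.28, although lam-1 was at 0.13 on log2(TPM + 1).

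The collagen gene cle-1 (WBGene00000527, I:8705668-8724279, minus strand) overlaps cdk-8 on the other strand, and whether counting used strand is not given in the sources used here, so its values may hold reads of that gene. Its log2 fold change with age was -0.18 ± 0.04 in water and -0.36 ± 0.03 in ascr#10. The peroxidasin gene pxn-2 (WBGene00004257, X:10972164-10979286, minus strand) was at 5.74 ± 0.178 CPM in water at 50 h and at 5.08 ± 0.188 CPM at 58 h, and its log2 fold change of -0.17 ± 0.11 did not pass (edgeR adjusted p = 0.146). In ascr#10 pxn-2 fell by 0.51 on the log2 scale. In all, 8 of the 10 genes fell with age in water, where 42.4% of the 16006 genes tested fell and 37.5% rose. In ascr#10 10 of 10 fell, where 43.9% of all genes fell and 37% rose. The median log2 fold change was -0.42 over the 10 genes and -0.10 over all genes in water, and -0.59 and -0.13 in ascr#10.

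Markers of other tissues moved over the same hours, in which 42.4% of all genes fell and 37.5% rose in water. Of 16 body wall muscle markers, 15 fell with age in water and 1 rose, with a median log2 fold change of -0.69. Their summed TPM lay between 6323 and 6382 in water at 50 h and between 4533 and 4628 at 58 h, and none was at 0 in any group. Of 18 oocyte and germline markers, 16 rose and 1 fell, and their summed TPM rose from between 5056 and 5079 to between 8451 and 8644. Sperm markers fell in 12 of 12 cases and zygotic embryo markers rose in 11 of 12 cases. The part of the germline and embryo markers in the result was not tested.

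A second scale, to the muscle markers, was chosen after the data had been seen. It changes the reference for every gene, and the part of muscle in the result was not tested. When libraries were scaled to the 16 muscle markers in place of all genes, 4 genes still fell with age in water and 5 rose. Relative to muscle, the log2 change in water was -0.39 ± 0.03 for unc-52, -0.25 ± 0.03 for let-2, -0.24 ± 0.03 for ost-1 and -0.07 ± 0.03 for emb-9. It was 0.01 ± 0.04 for nid-1, which did not pass. The genes epi-1, lam-1, lam-2, cle-1 and pxn-2 rose relative to muscle, by 0.55, 0.42, 0.40, 0.45 and 0.45. The direction of lam-1, lam-2 and cle-1 thus depends on the scale, while epi-1 and pxn-2 had not passed on the library scale. On the muscle scale 57.4% of all genes rose and 21.8% fell, with a median of 0.53. In ascr#10 let-2, unc-52 and ost-1 fell relative to muscle and epi-1, lam-1, lam-2 and cle-1 rose. There 57.4% of all genes rose and 21.9% fell.

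**Figure D2:**
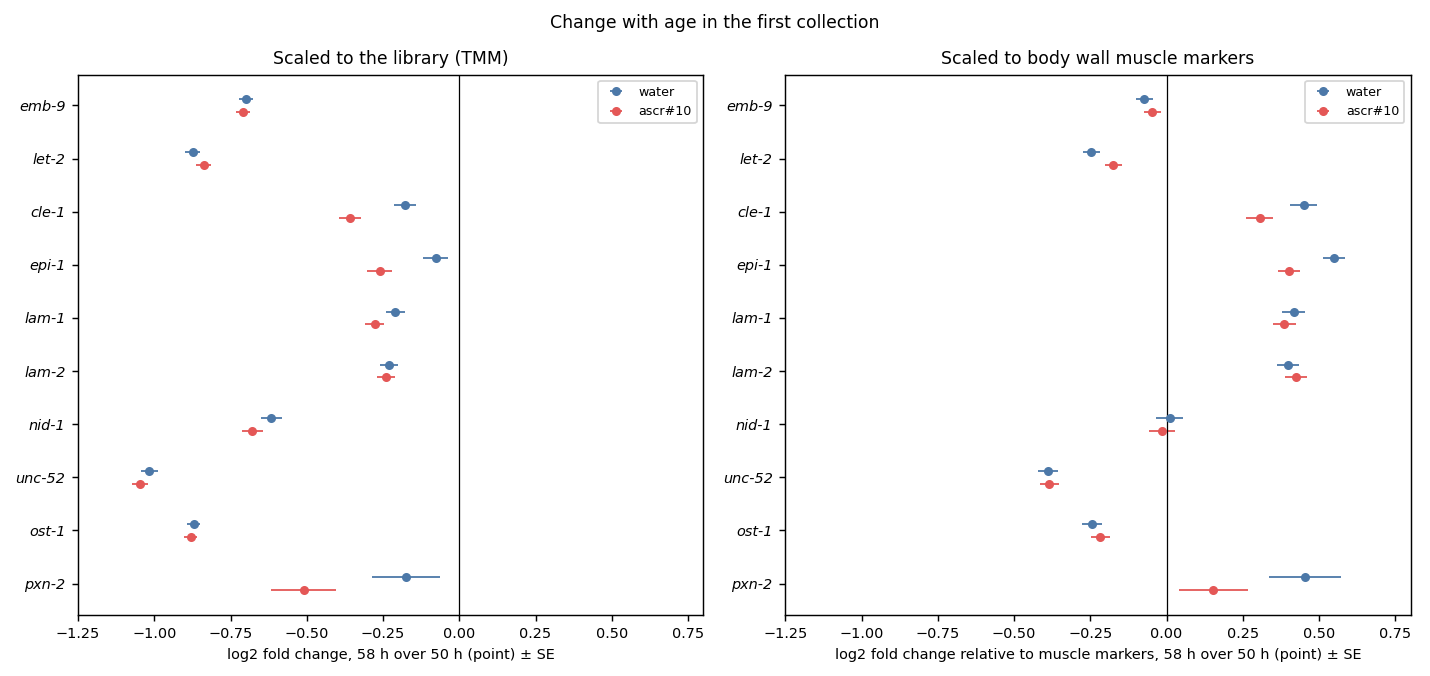
Log2 fold change, 58 h over 50 h, of each basement membrane gene in water and in ascr#10 (points, with SE), scaled to the whole library on the left and to 16 body wall muscle markers on the right. The collagen IV, perlecan and SPARC genes lie left of 0 in both panels, while the laminin genes and cle-1 lie left of 0 on the left and right of 0 on the right.

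Exposure was compared within each age and collection. At 50 h nidogen, a laminin alpha chain, perlecan, cle-1 and pxn-2 were higher in ascr#10, while the type IV collagen genes did not pass the test. For nid-1 the samples were at 100.5, 102 and 101.5 CPM in water and at 118, 116 and 118 CPM in ascr#10. The groups did not overlap, and the log2 fold change of nid-1 was 0.21 ± 0.03 (edgeR adjusted p = 1.48e-06). The laminin alpha gene epi-1 was at 183, 186 and 186 CPM in water and at 208, 209 and 209 CPM in ascr#10. Again no sample overlapped, and the log2 fold change was 0.17 ± 0.04 (edgeR adjusted p = 0.00547). For unc-52 it was 0.12 ± 0.03 on counts (edgeR adjusted p = 0.00103), but -0.14 on log2(TPM + 1), a scale on which 1 short transcript weighs heavily.

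The log2 fold change was largest for pxn-2, which has the lowest counts of the 10 genes, at 0.35 ± 0.10 (edgeR adjusted p = 0.0169). For cle-1 it was 0.10 ± 0.03 (edgeR adjusted p = 0.0392). The pxn-2 samples were at 5.89, 5.54 and 5.78 CPM in water and at 6.93, 6.72 and 8.14 CPM in ascr#10, from 157 to 251 counts each. Thus 5 of 10 genes rose and 0 fell at 50 h, against 7.7% higher and 5.2% lower among all genes. The other 5 did not pass. Their log2 fold changes were -0.02 for emb-9 (SE 0.02), -0.02 for let-2 (SE 0.02), -0.02 for lam-2 (SE 0.03), 0.02 for ost-1 (SE 0.02) and 0.08 for lam-1 (SE 0.03). Without water replicate 2, or without ascr#10 replicate 3, the count of genes that rose was 3, and without ascr#10 replicate 2, the sample that stood apart, it was 4, with cle-1 lost. The cle-1 call was also lost with RLE size factors, with DESeq2 and without the count filter. With limma on log2(TPM + 1), nid-1 alone of the 10 genes rose, and emb-9 at -0.09 and unc-52 at -0.14 fell (limma adjusted p = 0.0295 and 0.0307).

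In the first collection at 58 h the effect of exposure was small again. The nid-1 samples were at 68.4, 63.0 and 66.9 CPM in water and at 75.6, 72.6 and 71.5 CPM in ascr#10, which did not overlap. The log2 fold change of nid-1 was 0.15 ± 0.04 (edgeR adjusted p = 0.00302) and that of unc-52 was 0.08 ± 0.03 (edgeR adjusted p = 0.0487). These 2 of 10 genes rose and 0 fell, against 2.84% higher and 5.22% lower among all genes. Without water replicate 2 neither passed, which leaves 0, and without ascr#10 replicate 1 or replicate 2 only 1 gene passed. The remaining 8 log2 fold changes ran from -0.08 for cle-1 (SE 0.04) to 0.02 for let-2 (SE 0.02).

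The second collection at 58 h gave the opposite direction. There emb-9 was at 464, 487 and 479 CPM in water and at 392, 384 and 383 CPM in ascr#10. The let-2 samples were at 694, 740.4 and 712 CPM in water and at 575, 573 and 560.0 CPM in ascr#10. Every ascr#10 sample of both collagen genes was below every water sample. The log2 fold change was -0.30 ± 0.02 for emb-9 (edgeR adjusted p = 3.65e-15) and -0.33 ± 0.02 for let-2 (edgeR adjusted p = 2.01e-15).

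The other components were lower as well. For unc-52 the samples were at 157, 169 and 157 CPM in water and at 128, 134 and 134 CPM in ascr#10, a log2 fold change of -0.29 ± 0.03. For ost-1 they were at 297, 302 and 300.4 CPM in water and at 247, 245 and 248 CPM in ascr#10, a log2 fold change of -0.28 ± 0.02. For nid-1, which was higher in ascr#10 in both other comparisons, they were at 70.3, 67.7 and 69.3 CPM in water and at 62.0, 57.6 and 58.6 CPM in ascr#10. Its log2 fold change was -0.22 ± 0.03 (edgeR adjusted p = 1.61e-07). In none of these genes did the groups overlap. The laminin genes fell by 0.21 (epi-1), 0.14 (lam-1) and 0.18 (lam-2) on the log2 scale, but lam-1 was at 0.0153 ± 0.468 on log2(TPM + 1). The collagen gene cle-1 fell by 0.21, and pxn-2, at 4.26 ± 0.0929 CPM in water and 3.96 ± 0.237 CPM in ascr#10, did not pass (edgeR adjusted p = 0.404).

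In the second collection 9 of 10 genes thus fell and 0 rose, against 16.4% lower and 15.3% higher among all genes. For all 10 the ascr#10 samples lay below the water samples without overlap, which held for 21.5% of all genes. The count of 9 was the same with each of the 6 samples left out in turn. The median log2 fold change was -0.22 over the 10 genes and 0.00 over all genes.

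**Figure D3:**
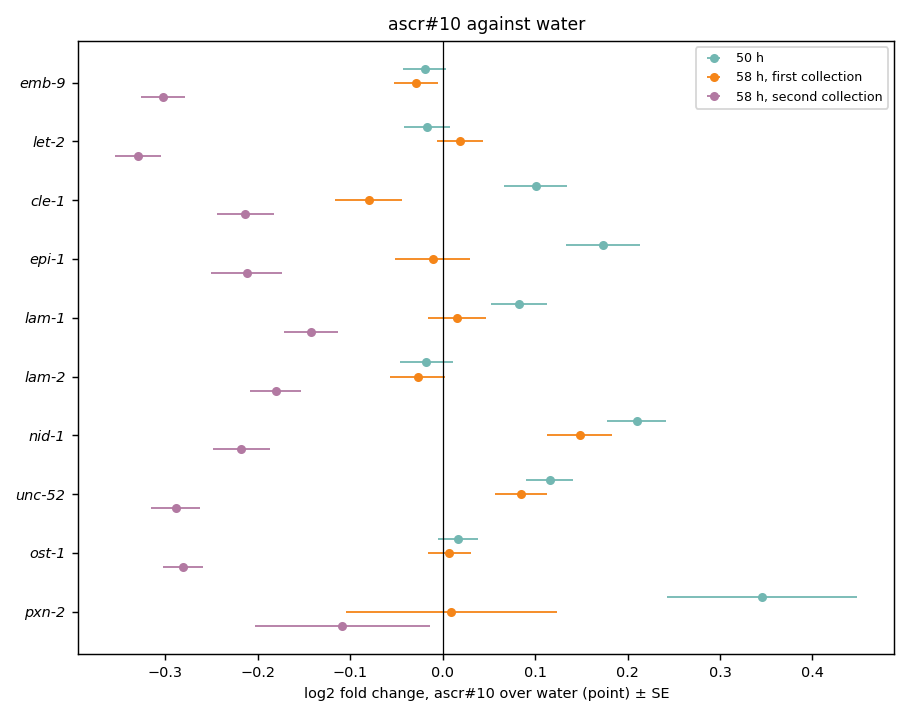
Log2 fold change, ascr#10 over water, of each basement membrane gene (points, with SE) at 50 h, at 58 h in the first collection and at 58 h in the second collection. The second collection lies left of 0 for all 10 genes, from -0.33 for let-2 to -0.11 for pxn-2, whereas nid-1 and unc-52 lie right of 0 in the other comparisons.

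The difference between the 2 collections was itself tested. The exposure effect at 58 h was lower in the second collection than in the first for 8 of 10 genes, where 6.8% of all genes were lower and 4.34% higher. The difference in log2 fold change was -0.37 ± 0.04 for unc-52 (edgeR adjusted p = 1.64e-10), -0.37 ± 0.05 for nid-1 (edgeR adjusted p = 3.89e-08) and -0.35 ± 0.04 for let-2 (edgeR adjusted p = 7.99e-11). It was -0.29 for ost-1, -0.27 for emb-9, -0.20 for epi-1, -0.16 for lam-1 and -0.15 for lam-2. The values for cle-1, -0.13 ± 0.05, and pxn-2, -0.12 ± 0.15, did not pass. Averaged over both collections, 8 of 10 genes were lower in ascr#10 at 58 h, where 13.7% of all genes were lower and 11.8% higher, although lam-1 was at 0.47 on log2(TPM + 1). The largest such mean was -0.17 ± 0.02, for emb-9, and nid-1 at -0.03 ± 0.02 did not pass (edgeR adjusted p = 0.289). These means combine values of opposite sign in the 2 collections for 6 of the 10 genes, of which nid-1 and unc-52 passed in both collections and let-2, lam-1, ost-1 and pxn-2 did not pass in the first. For emb-9, epi-1, lam-2 and cle-1 the sign was the same, but none of them passed in the first collection, where emb-9 was at -0.03 ± 0.02. The test of the mean uses the spread within groups, so the difference between the collections does not enter its p-values.

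Between ages, the exposure effect on counts differed for cle-1 in the first collection, the only 1 of the 10 genes to pass, by -0.18 ± 0.05 (edgeR adjusted p = 0.0191), against 3.8% of all genes lower and 0.931% higher. The cle-1 samples at 50 h were at 72.4, 69.4 and 67.7 CPM in water and at 76.6, 74.0 and 74.0 CPM in ascr#10. At 58 h they were at 63.7, 61.1 and 60.2 CPM in water and at 58.0, 58.2 and 59.0 CPM in ascr#10. The ascr#10 samples lay above water at the first age and below it at the second. It did not pass with RLE size factors, with DESeq2, with limma on TPM or without the count filter. On log2(TPM + 1) unc-52 passed in its place, in the other direction, at 0.38 (limma adjusted p = 0.0017), and with length-scaled counts unc-52 passed at 0.34 beside cle-1. Without water replicate 3 or ascr#10 replicate 1 of 50 h, or without water replicate 1 of 58 h, the count of genes that passed was 0.

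Muscle markers moved with the members in the second collection, but not they alone. Pharynx, neuron and intestine markers also had medians below 0 there, as given under other observations. Of the 16 muscle markers 15 fell and 0 rose in ascr#10 of that collection, with a median log2 fold change of -0.26. Among all genes 16.4% fell and 15.3% rose. In the first collection at 58 h 2 muscle markers fell and 1 rose, against 5.22% and 2.84% of all genes. Their summed TPM lay between 3955 and 4105 in water and between 3269 and 3322 in ascr#10 of the second collection, with none at 0. Scaled to these markers, 0 of the 10 members fell with exposure in the second collection, and lam-1 at 0.13 and lam-2 at 0.09 rose. On that scale the log2 change was -0.03 ± 0.03 for emb-9 and -0.05 ± 0.03 for let-2, and 51.5% of all genes rose and 2.57% fell. The collection difference on that scale passed for 1 of 10 members, unc-52, which was lower. There 45.2% of all genes were higher and 1.38% lower, with a median of 0.28. At 50 h nid-1, epi-1 and unc-52 rose on the muscle scale, by 0.19, 0.15 and 0.09, against 3.52% of all genes higher and 4.97% lower. Oocyte and germline markers rose in 16 of 18 cases with exposure in the second collection, by a median of 0.13, with a summed TPM between 7676 and 7784 in water and between 8073 and 8188 in ascr#10. Their part in the result was not tested.

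The second collection also differed from the first in level. In water at 58 h 7 genes were lower in the second collection and 2 were higher, against 27.3% and 30.8% of all genes. The laminin gamma gene lam-2 was lowest, at a log2 fold change of -0.40 ± 0.03, its mean going from 129.7 CPM to 98.0 CPM. SPARC (ost-1) went the other way, from 244 ± 4.8 to 299.7 ± 2.34 CPM, at 0.29 ± 0.02 on counts, but at 0.02 on log2(TPM + 1), which did not pass (limma adjusted p = 0.349). On counts cle-1 was at 0.08 ± 0.03. In ascr#10 8 genes were lower and 0 higher, against 25.4% and 30.2% of all genes, and ost-1 was at 0.01 ± 0.02, which did not pass, but at -0.27 on log2(TPM + 1). On that scale unc-52 and lam-1 were higher in the second collection, at 0.56 and 1.41 in water, and cle-1 was lower, at -0.18. The balance over all genes turned there as well, with 1847 higher and 7546 lower in water and 1538 higher and 7332 lower in ascr#10, against 4934 and 4363, and 4829 and 4058, on counts. Worms and sequencing were both new in the second collection, so these cannot be told apart.

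The wider set of matrix genes was counted from lists. Among all genes 42.4% fell and 37.5% rose with age in water. With exposure 16.4% of all genes fell and 15.3% rose in the second collection, and 5.2% fell and 7.7% rose at 50 h. Of 11 other matrix components, 8 fell and 2 rose with age in water, among them fbl-1 (fibulin) at -1.52, pxn-1 (peroxidasin) at -1.12 and mig-6 (papilin) at -1.02. With exposure in the second collection 7 of these 11 fell and 0 rose, with him-4 (hemicentin) at -0.38, dig-1 at -0.35 and mig-6 at -0.33. At 50 h 4 rose and 0 fell, with lam-3, the other laminin alpha chain gene, at 0.36 and him-4 at 0.24. Receptors and cell-surface proteoglycans were mixed with age. Of the 12 tested 6 rose and 3 fell in water, with the integrin alpha gene pat-2 at -1.02, the syndecan gene sdn-1 at 0.79 and the discoidin receptor gene ddr-1 at -0.69. With exposure in the second collection 3 of these fell and 1 rose, with pat-2 at -0.26, ddr-1 at -0.25 and the integrin alpha gene ina-1 at -0.11.

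All 6 genes of the integrin attachment complex fell with age in water, with deb-1 (vinculin) at -0.74, tln-1 (talin) at -0.49 and unc-97 (PINCH) at -0.44. Over the same hours 42.4% of all genes fell and 37.5% rose. In the second collection 3 of the 6 fell with exposure, and deb-1 was lowest at -0.29. There 16.4% of all genes fell and 15.3% rose. Enzymes that modify collagen chains fell in 3 of 4 cases with age in water, with the prolyl 4-hydroxylase genes phy-2 at -1.69 and dpy-18 at -0.59 and the lysyl hydroxylase gene let-268 at -0.55. The summed TPM of this list did not follow that count. It rose in water, from between 356 and 371 at 50 h to between 404 and 408 at 58 h in the first collection. With exposure at 50 h phy-2 was at -0.53 and dpy-18 at -0.17, while pdi-2 (protein disulfide isomerase) was at 0.18. Of 12 matrix proteases and inhibitors tested, 9 fell and 1 rose with age in water, with the ADAMTS protease genes adt-3 at -2.81 and adt-1 at -2.78. The metalloprotease gene zmp-6 had the lowest fitted value but counts near 0 at 58 h, so no fold is given. In the second collection 6 of 12 fell and 0 rose with exposure, with the inhibitor genes timp-1 at -0.31 and cri-2 at -0.24 and the metalloprotease gene zmp-3 at -0.29. With exposure at 58 h in the first collection few genes of these lists passed, where 5.22% of all genes fell and 2.84% rose. There mig-6 was the only one of 11 other matrix components to fall, at -0.08, the integrin genes pat-2 at 0.15 and pat-3 at 0.08 rose, and 0 of 6 attachment genes passed.

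**Figure D4:**
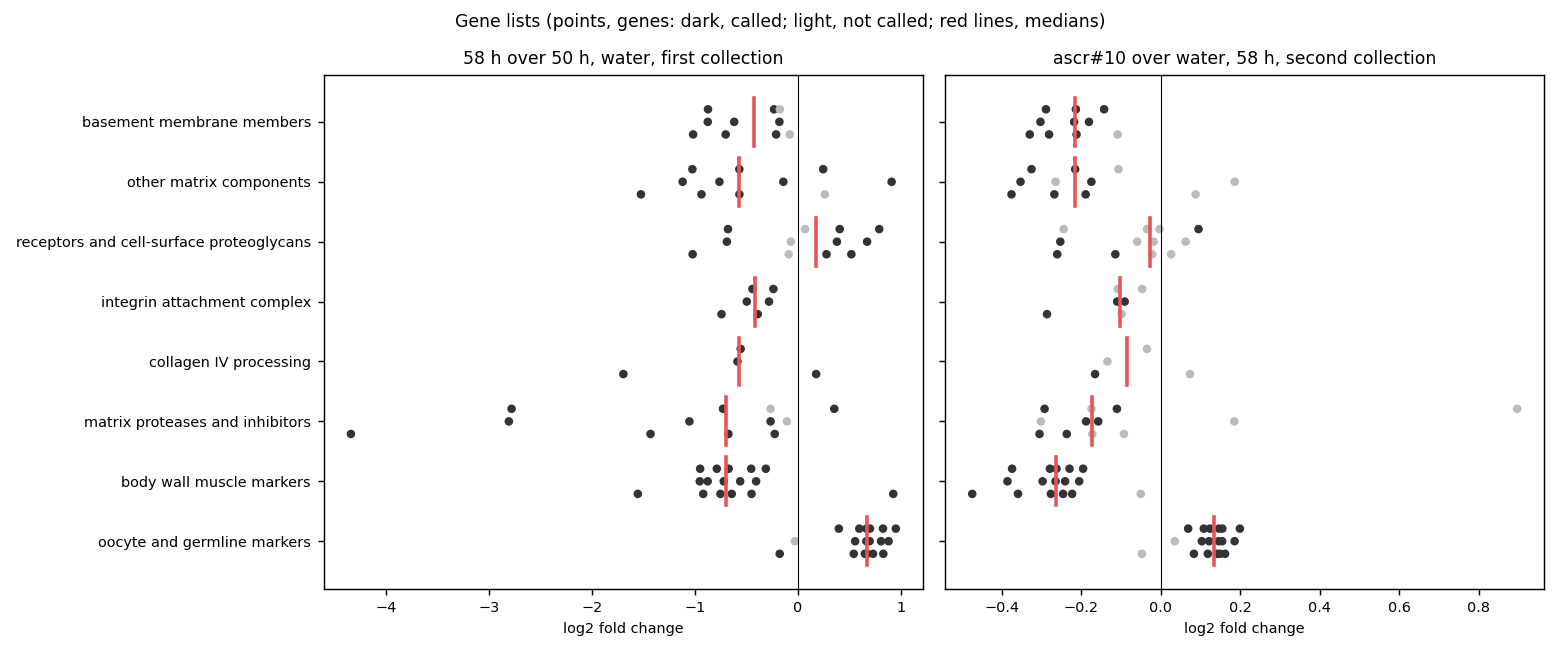
Log2 fold change of each tested gene of 8 lists, with age in water (left) and with exposure at 58 h in the second collection (right); dark points passed the test, light points did not, and red lines are medians. The members' medians, -0.42 and -0.22, lie on the same side of 0 as those of the muscle markers, -0.69 and -0.26.

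Transcripts within the genes were compared through their share of the gene's TPM. A test of each transcript against the rest of its gene covered 10834 transcripts, 32 of them of the members and 15 of these of unc-52, and 0.489% of them passed for exposure at 50 h and 2.23% for age in water. Type IV collagen let-2 has alternative exons, of 108 bases (X:16386754-16386861) in F01G12.5a.1 and of 111 bases (X:16386613-16386723) in F01G12.5b.1. The a form had 8.45%, 8.53% and 9.48% of let-2 TPM in water at 50 h, and 5.35%, 3.39% and 3.44% at 58 h in the first collection. The ages did not overlap, and this was the only member transcript to pass for age in water (edgeR diffSpliceDGE adjusted p = 0.0018). In ascr#10 its share was 7.97% ± 0.65 at 50 h and 4.68% ± 1.37 at 58 h, which did not pass. The 2 annotated forms also differ at both ends, so the shares rest on more than the alternative exon.

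For exposure at 50 h 2 member transcripts passed. The unc-52 transcript ZC101.2p.1 had 33.5% ± 3.99 of the gene's TPM in water and 21.6% ± 1.53 in ascr#10 (edgeR diffSpliceDGE adjusted p = 0.0174). It did not pass without water replicate 1, when any ascr#10 replicate was left out, or with the replicate numbers as a block. The epi-1 transcript K08C7.3d.1 had 9.36%, 13.3% and 0% in water and was listed at 0 in all 3 ascr#10 samples, and such a share at 0 can be a failed estimate. For exposure at 58 h 0 member transcripts passed in either collection, where 0.471% and 0.277% of all transcripts did. For age in ascr#10 3 passed, ZC101.2p.1 and the epi-1 transcripts K08C7.3c.1 and K08C7.3d.1, against 2.54% of all. Simulated data showed more calls in unchanged genes than the threshold allows, so calls of single transcripts are uncertain.

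More member transcripts passed between collections than between ages or exposures. In water 8 of the 32 member transcripts passed and in ascr#10 6 of 32, against 10.5% and 8.84% of all transcripts. The emb-9 transcript K04H4.1a.1 passed in both, and its share of the gene's TPM in the second collection ran from 77.2% to 78.6% in water and from 71.99% to 76.1% in ascr#10. The other emb-9 transcript, K04H4.1b.1, holds the rest and did not pass in either, with between 0% and 8.18% in the first collection and between 21.4% and 28.01% in the second. The let-2 transcript F01G12.5b.2, which is in the deposited tables but not in the annotation release used here, had between 7.55% and 27.4% in the first collection and was listed at 0 in all 6 samples of the second. Comparisons of transcripts were therefore read within a collection only.

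**Figure D5:**
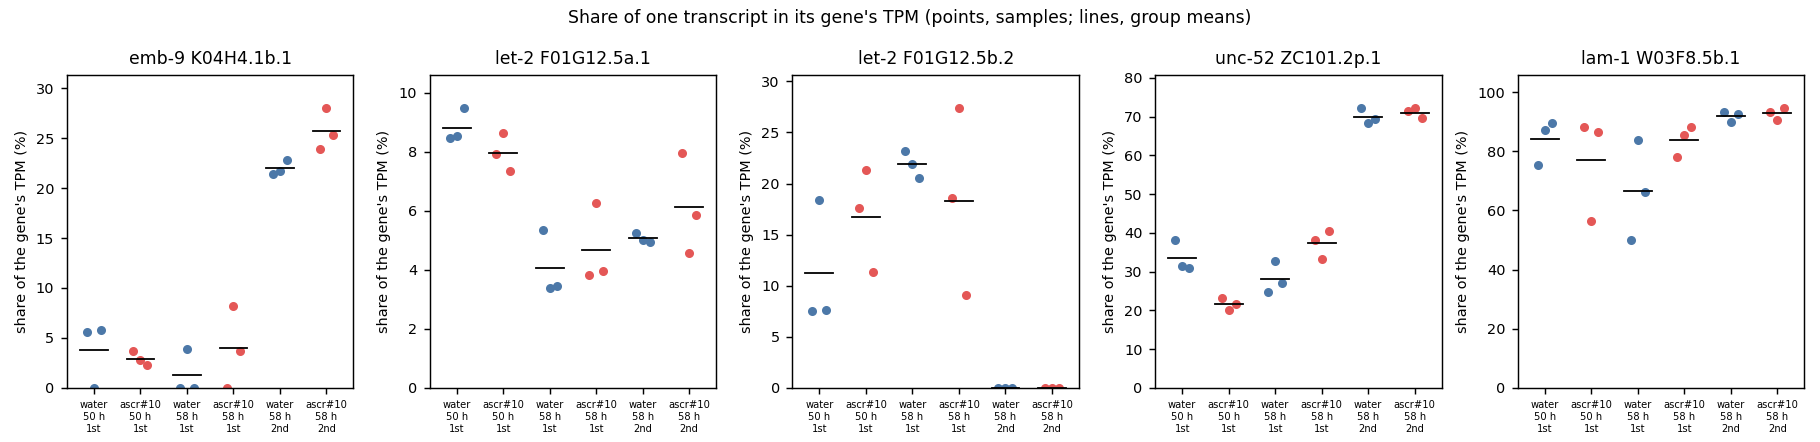
Share of the gene's TPM (percent, axis from 0) held by 5 transcripts of emb-9, let-2, unc-52 and lam-1 in every sample, by exposure, age and collection; points are samples and lines are group means of 3. The let-2 transcript F01G12.5a.1 lies lower at 58 h than at 50 h, and F01G12.5b.2 is at 0 in the 6 samples of the second collection.

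Short transcripts weigh on TPM. The lam-1 transcript W03F8.5b.1, of 231 bases, held 0.66% to 3.31% of lam-1 counts on group average but 66.6% to 92.9% of lam-1 TPM. The unc-52 transcript ZC101.2p.1, of 414 bases, held 3.33% to 6.91% of unc-52 counts in the first collection and 22.8% to 23.95% in the second. Levels of lam-1 and unc-52 in TPM therefore moved with these transcripts, and with them in, lam-1 was at 155 ± 58.3 TPM in water at 50 h. The epi-1 to lam-2 ratio was 0.635 ± 0.00381 in water and 0.724 ± 0.0056 in ascr#10 at 50 h. That is a difference of 0.189 in the log2 ratio, with an exact two-sided permutation p of 0.1, the smallest that 3 against 3 samples allow, and 0.3 after adjustment. Of the 9 ratio comparisons, only the change of emb-9 to let-2 with age passed.

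The likeness of other genes to emb-9 was described by Pearson correlation of log2 CPM across the 18 samples, among 7784 genes. These samples share ages and collections, so the values describe common movement and are not tested. Members aside, the genes most like emb-9 were lfi-1, npa-1, tag-241, unc-54 and unc-15, with r from 0.995 to 0.998. Of these unc-54 encodes the major body wall muscle myosin and unc-15 paramyosin. Neither is among the most alike genes with the group means taken out, which are named under other observations. Among the members r was 0.993 for let-2, 0.984 for unc-52, 0.967 for lam-1, 0.943 for lam-2, 0.942 for nid-1, 0.905 for epi-1, 0.887 for pxn-2, 0.856 for ost-1 and 0.837 for cle-1. With the 6 group means taken out, r was 0.893 for let-2, 0.804 for epi-1, 0.579 for lam-1, 0.508 for lam-2 and 0.502 for unc-52. It was -0.25 for ost-1 and -0.38 for pxn-2.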

How the data were processed

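The authors deposited salmon's estimated counts for genes and transcripts, length-scaled estimated counts and TPM values, as the file headers and names show. Its version and settings, the genome build and the strand setting are not stated in the sources used here. Directional libraries were made from total RNA, per the labels' protocols. Of the deposited gene counts 95.2% were whole, and all were rounded. Genes were kept by filterByExpr with a minimum count of 10, scaled by TMM and tested with edgeR 4.0.16 (quasi-likelihood, R 4.3.3) in 1 model of 6 group means. P-values were adjusted by Benjamini-Hochberg over 16006 genes, at a threshold of 0.05. The biological coefficient of variation was 2.86%. It describes the spread among samples of a group, each group within 1 collection, and does not hold the spread between collections. Transcript usage was tested with diffSpliceDGE and ratios of TPM with exact permutation tests. Tests were checked on simulated data. Alternatives were RLE size factors, DESeq2 1.42.0, no count filter, length-scaled counts, the compared groups alone, a replicate block, limma 3.58.1 on log2(TPM + 1) and log2(TPM + 0.1), and each sample left out.

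Members and gene lists were chosen with earlier results of these data known. All members are named, and of each other list up to 3 called genes with the largest absolute change. The likeness genes are the 5, other than members, with the highest correlation with emb-9 among those averaging at least 10 CPM. Of the listed genes tni-2, sthk-1 and elt-5 were not found by symbol. Scaling to muscle markers was added after the data were seen. Coordinates are those of Ensembl release 115 for WBcel235, matched by identifier.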

Additional observations from a re-analysis of the deposited data

Results flagged for a closer look

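These are the results in which the exposure effect differed between ages or between collections by a test of the difference itself (edgeR, adjusted over all genes). The cle-1 effect was lower at 58 h than at 50 h in the first collection by 0.181 on the log2 scale, a value of -0.181 (edgeR adjusted p = 0.0191). At 58 h the effect was lower in the second collection than in the first, with differences of -0.274 for emb-9, -0.348 for let-2, -0.366 for nid-1, -0.374 for unc-52, -0.201 for epi-1, -0.158 for lam-1, -0.154 for lam-2 and -0.288 for ost-1. Scaled to body wall muscle markers, 1 of these 8 collection differences passed, where 45.2% of all genes were higher and 1.38% lower. Single outlying samples were not tested for in these groups of 3.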

How the results depend on the processing

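Counts below are of members that passed, with the reported count in brackets. Exposure at 50 h gave 3 with limma at either pseudocount, of which nid-1 rose and emb-9 and unc-52 fell (5, all higher), and epi-1, pxn-2 and cle-1 did not pass. Exposure at 58 h in the first collection gave 1 with the compared groups alone and 1 with limma on log2(TPM + 1) (2). Age dependence gave 0 with RLE size factors, 0 with DESeq2 and 2 with length-scaled counts (1). Collection dependence gave 5 with limma at either pseudocount (8). The cause of these changes was not tested.

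Directions of single members turned on scales that weigh transcript length, but some of the values listed here did not pass on their own scale. With length-scaled counts these were unc-52 for exposure at 50 h and for the mean at 58 h. With limma it was unc-52 for collection in ascr#10. Of the lam-1 fold changes only those for collection in water passed. With length-scaled counts the log2 fold change of unc-52 was -0.0753 for exposure at 50 h, 0.0132 for the mean exposure effect at 58 h, 0.84 and 0.33 for collection in water and in ascr#10, and 0.34 for age dependence. There lam-1 was at 0.0693 for exposure in the second collection, 0.47 for the mean at 58 h, and 1.58 and 0.78 for collection. With limma on log2(TPM + 1), and then on log2(TPM + 0.1), unc-52 was at -0.14 and -0.14 for exposure at 50 h, 0.56 and 0.57 for collection in water, 0.0535 and 0.0549 for collection in ascr#10, and 0.38 and 0.39 for age dependence. On the same scales lam-1 was at 0.0153 and 0.0153 for exposure in the second collection, 0.47 and 0.48 for the mean at 58 h, 0.13 and 0.14 for age in ascr#10, 1.41 and 1.42 for collection in water, and 0.49 and 0.50 for collection in ascr#10. For collection in water nid-1 was at -0.18 and -0.19 and cle-1 at -0.18 and -0.19, and for collection in ascr#10 ost-1 was at -0.27 and -0.27. The lam-1 to lam-2 log2 ratio for exposure at 50 h was 0.0996 on plain counts and 0.104 without transcripts under 500 bases, against -0.25 on deposited TPM.

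With each replicate left out in turn, the members that passed numbered 3 to 5 for exposure at 50 h, 0 to 2 and 9 to 9 at 58 h in the first and second collection, 7 to 8 for their mean, 8 to 9 and 10 to 10 for age in water and in ascr#10, 7 to 9 and 7 to 8 for collection in water and in ascr#10, 0 to 2 for age dependence and 6 to 9 for collection dependence. Age dependence gave 2 without water 58 h replicate 2 of the first collection. Member transcripts that passed numbered 1 to 2 for exposure at 50 h, 0 to 2 and 0 to 0 at 58 h, 0 to 1 for the mean, 1 to 3 and 2 to 3 for age, and 6 to 10 and 3 to 5 for collection. The log2 ratio differences ranged for emb-9 to let-2 from -0.0232 to 0.00696 for exposure at 50 h, from -0.00799 to 0.00116 at 58 h and from 0.139 to 0.154 for age. For epi-1 to lam-2 they ranged from 0.184 to 0.195, from -0.0319 to 0.0115 and from 0.0487 to 0.0921. For lam-1 to lam-2 they ranged from -0.616 to 0.356, from 0.438 to 0.814 and from -0.678 to -0.192.

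Same-numbered samples correlated between -0.24 and 0.19 in their deviations from group means. With 3 samples a group this cannot settle whether the replicate numbers pair the samples. With the numbers as a replicate block, 6 members passed for exposure at 50 h, with lam-1 gained, and 7 for collection dependence, with epi-1 lost, and the other counts of members were the same. In transcript usage the block gave 1 for exposure at 50 h (2), 1 for exposure at 58 h in the first collection (0) and 2 for age in water (1).

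Over all genes, exposure at 58 h in the first collection gave 2277 calls without the count filter (1432 higher, 845 lower), against 1289 (454 and 835), and 1520 with RLE size factors (723 and 797). In the second collection limma gave 2285 (425 and 1860) and 2414, against 5067 (2449 and 2618). For the mean at 58 h limma gave 2426 and 2628 against 4083, and RLE size factors gave 4949 (2943 and 2006). Collection dependence gave 1183 with limma on log2(TPM + 1), against 1783, and 1818 (328 and 1490) without the filter. Exposure at 50 h gave 2691 (461 and 2230) with limma on log2(TPM + 1), against 2065 (1233 and 832). Limma also lowered the share of higher calls for exposure at 58 h in the first collection (278 of 1328) and for the mean (300 of 2426), and raised it for age dependence (321 of 622, against 149 of 758), which without the filter was 313 of 863. For the collection effects limma on log2(TPM + 1) moved the median of all genes to -0.15 in water and -0.15 in ascr#10, from 0.01 and 0.02.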

Other observations

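Other tissues' markers, not counted above, moved over the same comparisons. Among all genes 16.4% fell and 15.3% rose with exposure in the second collection. With age in water 42.4% of all genes fell and 37.5% rose. With exposure in the second collection 3 of 5 pharynx markers, 6 of 10 neuron markers and 5 of 8 intestine markers fell and none of these lists had a gene that rose, with medians of -0.62, -0.19 and -0.15. Hypodermis and seam markers went the other way there, with 3 of 9 higher, 0 lower and a median of 0.23. Of 8 somatic gonad markers tested 3 fell and 1 rose. With age in water 4 of 5 pharynx markers fell and 1 rose, and 8 of 10 neuron markers fell and 2 rose. Of 8 somatic gonad markers 6 fell and 2 rose, and of 9 hypodermis and seam markers 4 fell and 5 rose. Summed TPM did not always follow these counts. In water it rose for neuron markers, from between 330 and 339 at 50 h to between 357 and 363 at 58 h in the first collection. For somatic gonad markers it rose from between 72.5 and 75.8 to between 77.7 and 79.1. It also rose for intestine markers, and it fell for pharynx markers and for hypodermis and seam markers.

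With the 6 group means taken out, the genes other than members most like emb-9 over the 18 samples were hcp-1, F08B4.8, Y111B2A.10, T28C6.7 and spc-1, with r from 0.825 to 0.893, a range that also holds let-2. The gene spc-1 encodes alpha spectrin. These values are a description with no test.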
